A study of Mus musculus with 8 samples.

Results

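The surface of type 1 conventional dendritic cells (cDC1) is marked by a small set of proteins, and 5 of their genes are described here: Cadm1, Xcr1, Clec9a, Cd8a and Cd24a. The genes were chosen by name as markers, with earlier results of these data known. The binding of DC-SCRIPT at them was read from CUT&Tag peaks. A peak was counted for a gene when its centre lay inside that gene or, where no protein-coding gene held the centre, when that gene was the nearest one. By this rule the 5 genes carried 36 of 31473 peaks in cDC1 and 3 of 2776 peaks in type 2 cells (cDC2), out of 21887 protein-coding genes considered.

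DC-SCRIPT, the product of Zfp366, is a nuclear zinc finger protein found mainly in dendritic cells. In CUT&Tag an antibody brings a transposase to a protein on chromatin, so that nearby DNA is cut, tagged and sequenced. All libraries came from splenic dendritic cells of female C57BL/6 mice, sorted as cDC1 or cDC2, and each library was made from a pool of mice. The knockout mice were zfp366-/- and the wild-type mice zfp366+/+. There were 2 knockout and 3 wild-type libraries of cDC1, and 2 knockout and 1 wild-type libraries of cDC2. The labels state neither the age of the mice nor whether the gene was lost in all cells or in 1 lineage. Each peak list compares 1 set of knockout tags with 1 set of wild-type tags, so no value per library and no spread between pools can be given. No test between genotypes or subsets was made, and every interval is an exact 95% interval over tags that covers counting error only. In these bulk libraries, signal in fewer cells and less signal per cell cannot be told apart.

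In cDC1 the knockout set held 12.1 M (mega, on the metric scale) tags and the wild-type set 35.5 M, and in cDC2 the knockout set held 6.83 M and the wild-type set 4.78 M. Normalised tags are the tags of a peak per 10 M tags of its set. The fold of a peak is the authors' own, wild type over knockout, and was at least 4 by their rule, so it describes a peak and tests nothing. Coordinates are those of mouse build GRCm38. CUT&Tag measures no RNA, so the identity of the sorted cells could not be checked against expressed markers.

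The 5 proteins serve the division of labour among dendritic cells. cDC1 take up dead cells and cross-present their antigens to CD8 T cells, and cDC2 prime mainly CD4 T cells. XCR1, the product of Xcr1, is the receptor for a chemokine of CD8 T cells and natural killer cells, and CLEC9A is a lectin that senses dead cells. CADM1 is an adhesion molecule whose ligand appears on activated T cells. CD8A forms a homodimer on splenic cDC1 and is best known as the T cell coreceptor. CD24A is a small, heavily glycosylated protein used to recognise cDC1.

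All 5 genes had at least 1 cDC1 peak, while 51.4% of protein-coding genes did. In cDC2 2 of the 5 had a peak, Cadm1 with 1 and Xcr1 with 2, and 9.54% of protein-coding genes did. The cDC1 peaks were spread unevenly, with 14 at Cadm1, 12 at Cd24a, 5 at Xcr1, 4 at Cd8a and 1 at Clec9a. Of the 36, 17 were centred inside the gene, which is 47.2%, and over all cDC1 peaks 56.0% were centred inside a protein-coding gene. A further 13, or 36.1%, lay over 10 kb from the gene, 10 of them at Cd24a. Over all cDC1 peaks 24.6% lay over 10 kb from the nearest protein-coding gene. The count depends on how far a gene may reach. With pseudogenes and non-coding RNA genes also allowed as the nearest gene, 22 of the 36 were counted, with 1 peak at Cd24a and 2 at Xcr1.

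**Figure D1:**
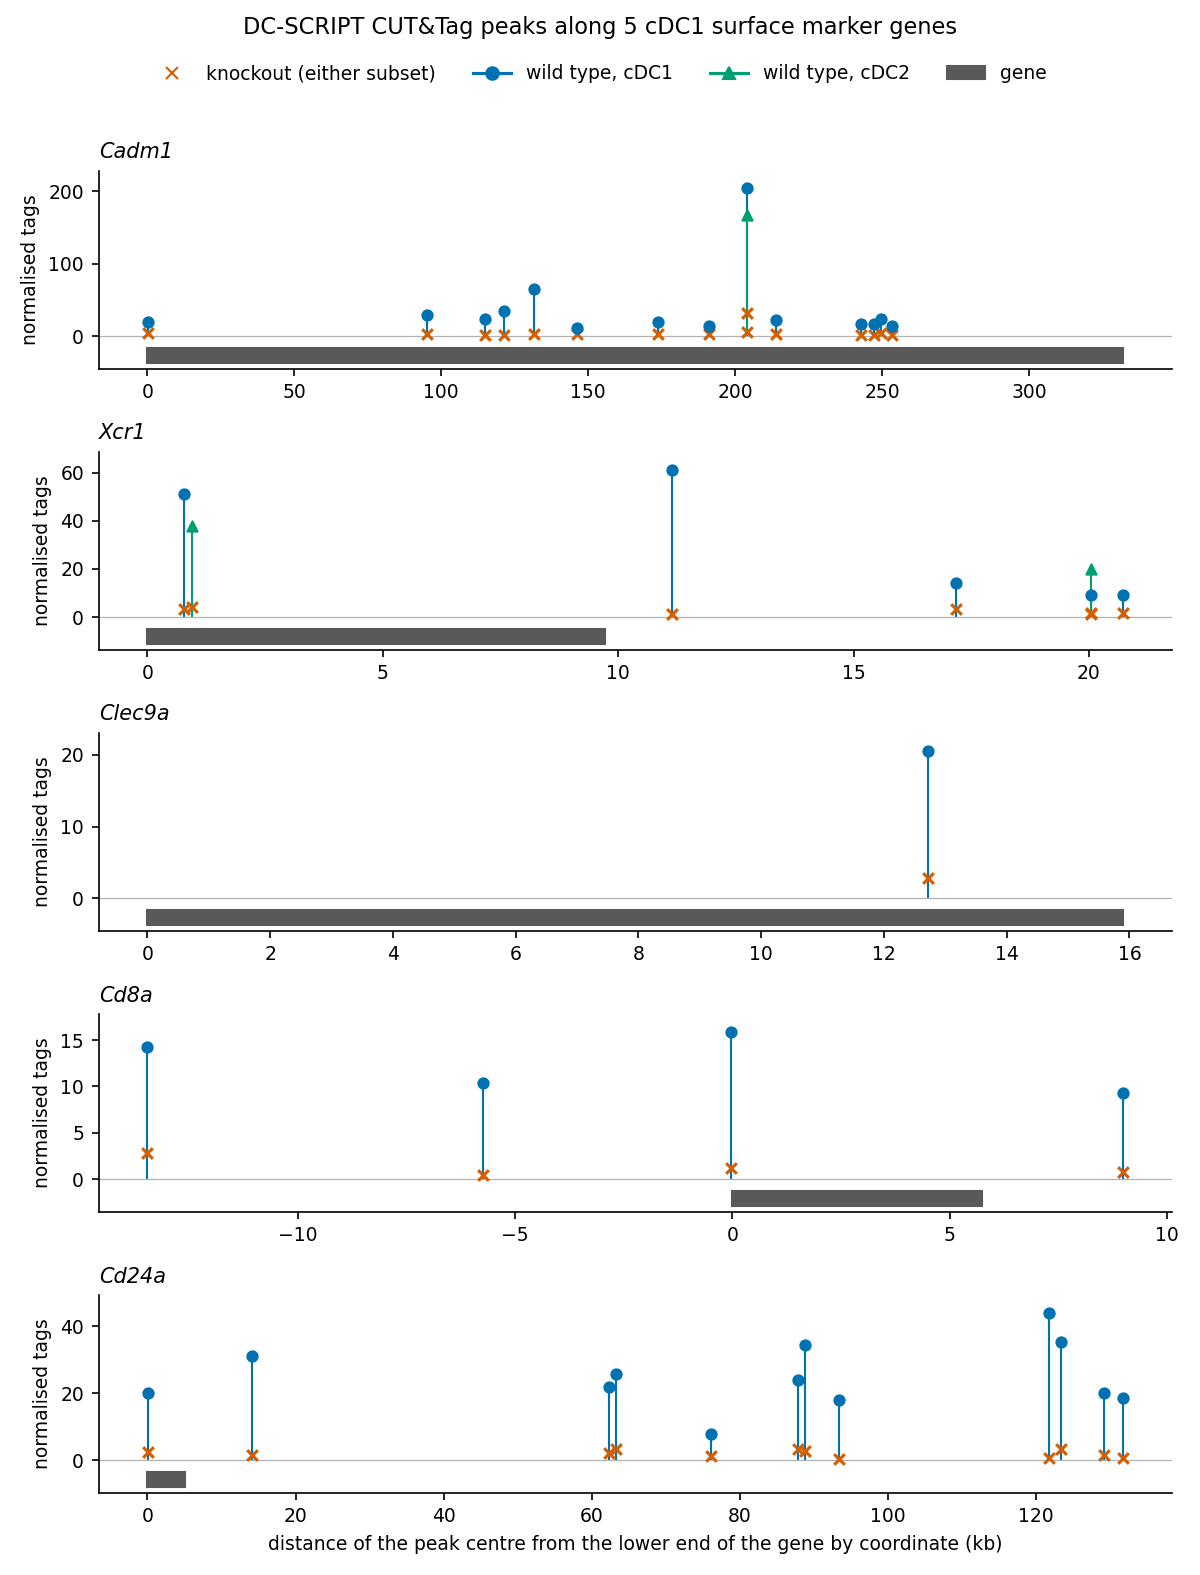
Peaks along the 5 genes, 1 panel per gene. The x axis is the distance of the peak centre from the lower end of the gene in kb, the y axis is normalised tags, crosses are knockout values of either subset, circles are wild-type cDC1, triangles are wild-type cDC2 and the grey bar is the gene. The 14 Cadm1 peaks lie inside the gene with 1 at 203.7 tags above the rest, and 10 of the 12 Cd24a peaks lie over 50 kb above the gene.

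Cadm1 held the strongest binding. The gene spans 332.1 kb, at chr9:47530170-47862280, and all 14 of its cDC1 peaks lay inside it. The strongest, at chr9:47734137-47734327, had 5.77 normalised tags in knockout cDC1 and 203.7 in wild-type cDC1. Its fold was 35.3 (95% interval 17.0 to 88.1), and by wild-type tags it ranked number 6 of all 31473 cDC1 peaks. This peak lay 204.1 kb above the lower gene end, deep within the gene body, and carried 39.6% of the wild-type signal summed over the Cadm1 peaks. The next, at chr9:47661624-47661814, had 2.89 normalised tags in knockout cells and 65.3 in wild-type cells, with a fold of 22.6 (95% interval 7.61 to 73.1). It stood out from its surroundings more than any other of the 36 peaks, with 20.5 times the tag density of the 10 kb around it.

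The other 12 Cadm1 peaks were of ordinary height. Their normalised tags ran from 0.824 to 4.12 in knockout cDC1 and from 10.9 to 34.1, with a median of 19.3, in wild-type cDC1. Over the whole cDC1 list the median was 1.65 in knockout and 15.5 in wild-type cells. A peak at chr9:47530122-47530312 covered the lower gene end and was among the weaker ones by fold, with 4.12 normalised tags in knockout and 19.6 in wild-type cells and a fold of 4.79 (95% interval 1.96 to 15.2). The remaining 13 stood between 95.0 kb and 253.5 kb above that end, and the last 78.7 kb of the gene held none. Inside Cadm1 there were 4.22 peaks per 100 kb of gene, and over all protein-coding genes 1.71 per 100 kb. The shorter genes Clec9a, Xcr1 and Cd24a had 6.29, 10.3 and 19.6 per 100 kb, each from 1 peak, and Cd8a had 0. Of all protein-coding genes, 0.758% had as many cDC1 peaks as Cadm1 or more, a count that grows with the length of a gene and was not adjusted for it.

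Xcr1 carried both strong and weak sites within a short stretch. The gene, at chr9:123852315-123862029, is transcribed from its upper end on the minus strand. The strongest cDC1 peak, at chr9:123863363-123863553, lay 1.43 kb before the RNA start. It had 1.24 normalised tags in knockout cDC1, from 1.5 tags, and 61.3 in wild-type cDC1, and its fold was 49.6 (95% interval 10.2 to 308.4), or 29.7 with 1 tag added to the knockout set. The second, at chr9:123853001-123853191, lay inside the gene 8.93 kb from the RNA start, towards its far end. There the values were 3.30 normalised tags in knockout cells and 51.2 in wild-type cells, with a fold of 15.5 (95% interval 5.94 to 57.4). Both were higher than at least 94.7% of all cDC1 peaks by wild-type tags.

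Farther upstream of Xcr1 the peaks were low. They lay 7.47, 10.3 and 11.0 kb before the RNA start. The peak at 7.47 kb had 3.30 normalised tags in knockout cDC1 and 14.0 in wild-type cDC1, and its fold of 4.27 (95% interval 1.57 to 16.3) was the lowest of the 36. The other two each had 1.65 normalised tags in knockout cells, against 9.02 and 9.16 in wild-type cells, below the list median of 15.5. All 3 are nearer to the pseudogene Gm2774 than to Xcr1. Just past the lower end of Xcr1, 0.3 kb away, stood another strong peak of 9.48 normalised tags in knockout and 56.1 in wild-type cells, which the rule gave to the neighbour Fyco1.

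Clec9a had the fewest peaks of the 5. The gene lies on the plus strand at chr6:129408862-129424764, and its only cDC1 peak, at chr6:129421484-129421674, was centred 12.7 kb past the RNA start. It held 2.89 normalised tags in knockout cDC1 and 20.6 in wild-type cDC1, with a fold of 7.23 (95% interval 2.37 to 23.8). The RefSeq range of the lectin gene Clec12b covers the same place, so this peak was counted for both genes. A stronger site upstream was not counted for Clec9a because the range of Clec12b holds it. At chr6:129407521-129407711, 1.25 kb before the Clec9a RNA start, there were 2.47 normalised tags in knockout cDC1 and 43.0 in wild-type cDC1, with a fold of 17.4 (95% interval 5.86 to 85.5). In cDC2 a peak at chr6:129407255-129407445, 1.51 kb before that start, had 1.47 normalised tags in knockout and 16.8 in wild-type cells. Its fold was 11.4 (95% interval 1.53 to 507.4), and it did not overlap the cDC1 peak just described. No cDC2 peak was centred inside Clec9a.

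Cd8a was bound weakly, and its highest peak sat on the RNA start. The gene is on the plus strand at chr6:71373427-71379171. The peak at chr6:71373287-71373477 was centred 45 bp before the start, with 1.24 normalised tags in knockout cDC1 and 15.9 in wild-type cDC1. Its fold was 12.9 (95% interval 2.53 to 81.0) on 1.5 knockout tags, and 7.72 with 1 knockout tag added. Among the 36 peaks it was 1 of 3 that touched an end of their gene, beside those of Cadm1 and Cd24a. The part of this peak before the RNA start is shown because it was the only peak to fall in a promoter window of the 3 genes matched there, Xcr1, Clec9a and Cd8a. The sequence is the plus strand from RefSeq, GRCm38.p6, chr6:71373287-71373426, with capitals for a match to GGAANNGAA on the minus strand.

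Cd8a promoter peak: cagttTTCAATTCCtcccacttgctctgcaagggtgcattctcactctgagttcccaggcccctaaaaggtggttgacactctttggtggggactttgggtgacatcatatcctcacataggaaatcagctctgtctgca

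The letters GGAANNGAA are of the kind bound by ETS factors together with interferon regulatory factors, and 8.24% of 32851 promoter windows of 300 bases hold them on either strand. The interferon-response letters GAAANNGAA, the AP-1 letters TGANTCA and the PU.1 letters GAGGAAG, searched on both strands, were not in these 140 bases. They occur in 8.56%, 7.81% and 13.6% of all windows. All these shares are for windows of 300 bases and not for a stretch of 140. The whole Cd8a window held 2 matches to GGAANNGAA, of which the peak part held 1. The Clec9a window held 1 match to GAAANNGAA, and the Xcr1 window held none of these letters. GGAANNGAA and GAAANNGAA can overlap where both are present. A match describes letters and not a site in use.

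The other Cd8a peaks were lower still. Before the start, the interval of 35.9 kb between Cd8b1 and Cd8a, known to hold enhancers of the Cd8 genes in T cells, contained peaks 13.5 kb and 5.75 kb upstream of Cd8a. The one at 13.5 kb had 2.89 normalised tags in knockout cDC1 and 14.2 in wild-type cDC1. The one at 5.75 kb was at the lowest knockout value listed, which also stands for no tag, and had 10.4 normalised tags in wild-type cells. Only the lower 95% limit of its fold can be given, 3.26. A further peak of the interval, 34.1 kb upstream of Cd8a and 1.88 kb from Cd8b1, was counted for Cd8b1 and had 0.824 normalised tags in knockout and 6.91 in wild-type cells. Past the far end of the gene, 3.25 kb away, a peak held 0.824 normalised tags in knockout and 9.30 in wild-type cells. In wild-type tags, 3 of the 4 Cd8a peaks fell below the median of the cDC1 list.

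T cells also use Cd8a, so genes of T cells were read beside it. Of 7 such genes 5 had a cDC1 peak, where 51.4% of all protein-coding genes did, and the highest peak of each of these had from 10.7 to 48.1 normalised wild-type tags. The most tags were at Cd4, followed by 35.9 at Cd8b1, which encodes the other CD8 chain, and Lck and Zap70 had no peak. In cDC2 2 of the 7 had a peak, Cd8b1 and Cd4, where 9.54% of all protein-coding genes did. The part of T cells in the Cd8a signal was not tested.

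Cd24a differed from the other genes in having most of its peaks far away. The gene, at chr10:43579169-43584265, has no other protein-coding gene for 289.9 kb above it, and 10 of its 12 cDC1 peaks lay from 57.2 kb to 126.7 kb above the upper gene end. Normalised tags at these 10 ran from 0.412 to 3.30 in knockout cDC1 and from 7.75 to 44.0, with a median of 23.0, in wild-type cDC1. They made up 83.0% of the wild-type signal counted for Cd24a. The highest, at chr10:43700914-43701104, 116.7 kb above the gene, had 0.824 normalised tags in knockout cells, which is 1 tag, and 44.0 in wild-type cells. Its fold of 53.3 was the highest of the 36, leaving aside the 2 peaks at the lowest knockout value listed. The 95% interval of this fold ran from 9.44 to 2121, and with 1 knockout tag added the fold was 26.7. A close neighbour at chr10:43702482-43702672 had 3.30 and 35.2 normalised tags in knockout and wild-type cells, with a fold of 10.7 (95% interval 4.07 to 39.9). The non-coding RNA genes F930017D23Rik, Gm34481 and Gm40632 and the pseudogene Rpl26-ps1 lie nearer to these peaks, and assignment to Cd24a rests on nearness along the chromosome only.

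At the gene itself, the peak at chr10:43579156-43579346 covered the lower end of Cd24a, with 2.47 normalised tags in knockout cDC1 and 20.0 in wild-type cDC1. Its fold was 8.09 (95% interval 2.66 to 40.2). The next, at chr10:43593144-43593334, lay 8.97 kb above the upper end, with 1.65 normalised tags in knockout and 31.2 in wild-type cells and a fold of 19.0 (95% interval 5.13 to 158.7). It was centred 188 bp before the start of the non-coding RNA F930017D23Rik. The part of that peak in the promoter window of this RNA is shown for comparison with the Cd8a site. It is the plus strand from RefSeq, GRCm38.p6, chr10:43593177-43593334.

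F930017D23Rik promoter peak, nearest protein-coding gene Cd24a: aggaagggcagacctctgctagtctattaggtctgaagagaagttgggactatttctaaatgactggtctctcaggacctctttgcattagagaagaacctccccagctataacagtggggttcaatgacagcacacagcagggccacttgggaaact

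None of the 4 patterns was in these 158 bases, so no letter is in capitals. G and C made up 48.1% of this stretch and 49.3% of the Cd8a stretch, beside a median of 52.7% over all promoter windows.

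**Figure D2:**
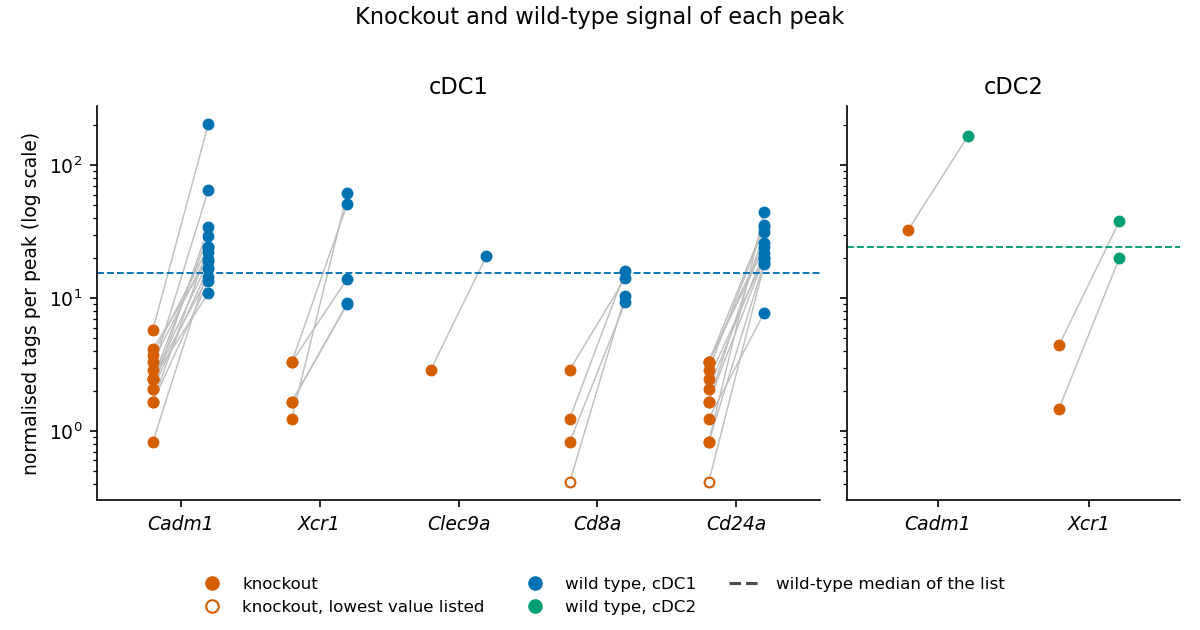
Knockout (left) and wild-type (right) signal of every peak of the 5 genes in cDC1 and cDC2, in normalised tags on a log scale, with a line joining the values of 1 peak. Open circles are peaks at the lowest knockout value listed, and dashed lines are the wild-type medians of the lists, 15.5 in cDC1 and 24.1 in cDC2. All Cd8a peaks lie close to or below the cDC1 median, while Cadm1 and Xcr1 reach 203.7 and 61.3.

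As a group, the 36 cDC1 peaks, 14 of them at Cadm1 and 12 at Cd24a, sat somewhat above the middle of the list in signal. Their median was 2.27 normalised tags in knockout and 20.0 in wild-type cells, beside 1.65 and 15.5 over all cDC1 peaks. The genes differed, with wild-type medians of 20.85 at Cadm1, 23.0 at Cd24a, 20.6 at Clec9a, 14.0 at Xcr1 and 12.3 at Cd8a. In wild-type tags 26 of the 36 exceeded the list median and 11 its upper quartile of 25.4. The median fold was 10.7 for the 36 and 10.2 for the list. Over the surrounding 10 kb, the median fold in tag density was 5.39 for the 36 and 6.65 for the list. Knockout tags were at the lowest value listed at 2 of the 36 peaks and at 6329 of all 31473.

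**Figure D3:**
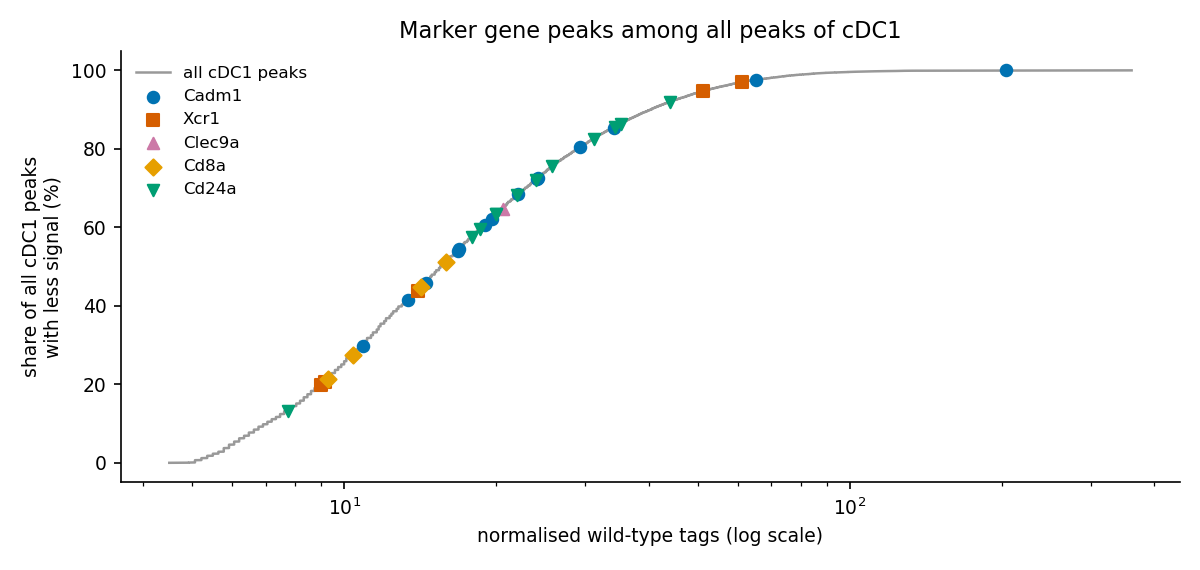
The cDC1 peaks of each gene among all 31473 cDC1 peaks. The x axis is normalised wild-type tags on a log scale and the y axis the percent of cDC1 peaks with less signal. The peaks of Cd8a end at 51.2% of the list, while the highest peaks of Xcr1 and Cadm1 reach 97.0% and above.

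The second question was whether the same places were bound in cDC2, the subset that carries little XCR1 or CLEC9A. With 1 shared base as the minimum, all 3 cDC2 peaks of the 5 genes overlapped a cDC1 peak, as did 63.7% of all cDC2 peaks. In the other direction, 3 of the 36 cDC1 peaks overlapped a cDC2 peak, as did 5.61% of all cDC1 peaks. Clec9a, Cd8a and Cd24a had no cDC2 peak by the rule of assignment. That rule gave the cDC2 peak 1.51 kb before the Clec9a RNA start to Clec12b. At an overlap of at least 50% of the shorter peak, 2 of the 3 regions counted as shared, since the peaks inside Xcr1 had 24 bp in common.

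Depth limits this comparison, because the cDC2 wild-type set is the smaller one. The share of wild-type tags in peaks was also lower, about 0.79% in cDC2 and 6.47% in cDC1. Comparison with knockout removed 15527 of 19569 candidate peaks in cDC2 and 112881 of 174971 in cDC1. Median knockout signal was 3.66 normalised tags over the cDC2 list and 1.65 over the cDC1 list. Their part in the peaks without a cDC2 partner was not tested. Scaled to the depth of the cDC2 wild-type set, 26 of the 36 cDC1 peaks would be expected to reach the threshold of 7 tags given for cDC2. Of all cDC1 peaks 53.5% would. Of those 26, 2 overlapped a cDC2 peak, and of all cDC1 peaks past the threshold 9.26% did. Most cDC1 peaks past the threshold, at any gene, thus had no cDC2 partner. The strongest peaks without a cDC2 partner were the second Cadm1 peak, expected at 31.2 tags, the Xcr1 peak before the RNA start at 29.3 tags and the highest Cd24a peak at 21.0 tags. For Cd8a 1 of 4 peaks reached the threshold, with 7.59 tags expected at its promoter. The cDC2 list itself reaches down to 6 wild-type tags, and the Cd8a peak 13.5 kb upstream was expected at 6.78. Expected tags take the signal to be equal in both subsets. A peak expected below the threshold can still be listed, as the peak 10.3 kb before Xcr1 was. The threshold covers tags only and not the limits on fold, which a peak must also pass.

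**Figure D4:**
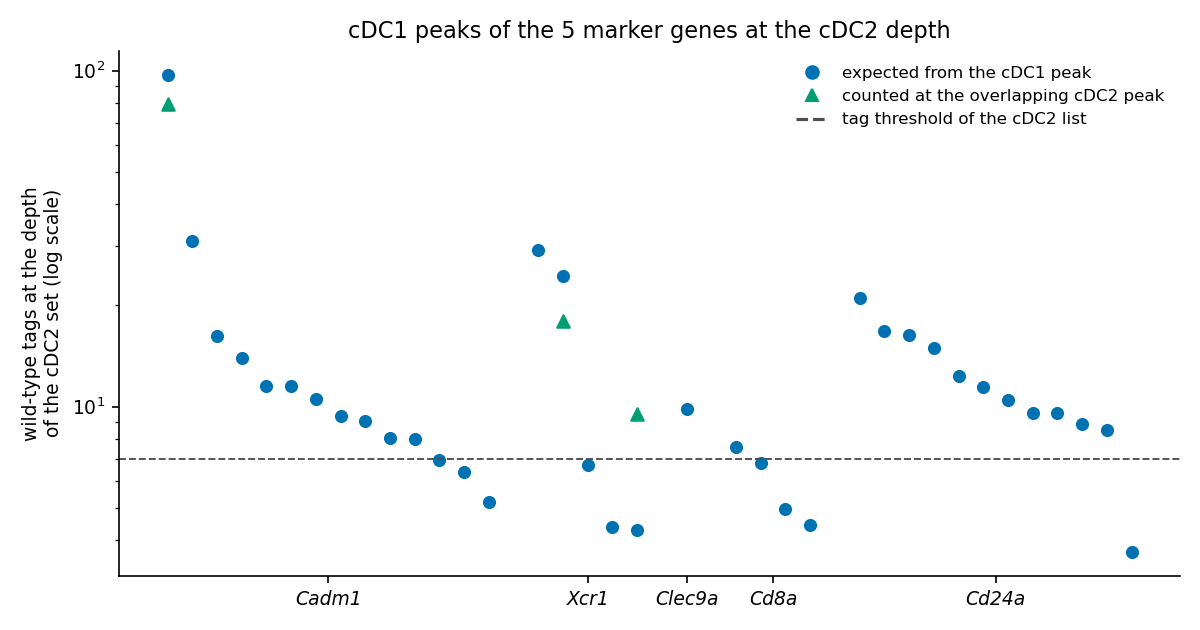
Wild-type tags expected at the depth of the cDC2 set for each cDC1 peak (circles), ordered within each gene from high to low, on a log scale. Triangles are the tags counted at the overlapping cDC2 peak and the dashed line is the cDC2 threshold of 7 tags. At Cadm1 97.3 tags were expected and 79.5 counted, and at the peak 10.3 kb before Xcr1 4.31 were expected and 9.5 counted.

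The Cadm1 site was strong in both subsets. The cDC2 peak at chr9:47734226-47734416 had 32.2 normalised tags in knockout cDC2 and 166.5 in wild-type cDC2, with a fold of 5.17 (95% interval 3.21 to 8.75). Its centre was 89 bp from that of the cDC1 peak. In wild-type cells the cDC1 signal was 1.22 times that of cDC2 (95% interval 0.963 to 1.55), close to the median ratio of 1.09 over all 1767 shared regions. In knockout cells cDC1 had the lower signal. Knockout cDC1 had 7 tags and knockout cDC2 22 tags, and at equal depth the cDC1 level was 0.179 times that of cDC2 (95% interval 0.0646 to 0.434). The median knockout ratio over shared regions was 0.563, and 9.17% of them had a lower one. By knockout signal this was number 2 of 2776 cDC2 peaks. The fold intervals of cDC1 and cDC2 at this site do not overlap, but they hold no spread between pools, and the difference was not tested.

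Inside Xcr1 the cDC2 peak at chr9:123853168-123853358 had 4.40 normalised tags in knockout cDC2 and 37.7 in wild-type cDC2, with a fold of 8.58 (95% interval 2.50 to 45.5). The wild-type ratio of cDC1 over cDC2 was 1.36 there, with a 95% interval of 0.833 to 2.34 that includes equal signal. The other cDC2 peak, at chr9:123872268-123872458, lay 10.3 kb before the Xcr1 RNA start and was centred 2 bp from its cDC1 partner. It had 1.47 normalised tags in knockout cDC2, which is 1 tag, and 19.9 in wild-type cDC2, with a fold of 13.6 (95% interval 2.03 to 620.4). Here the wild-type signal of cDC1 was 0.452 times that of cDC2 (95% interval 0.207 to 0.982), and 4.47% of shared regions had a lower ratio. The lowest wild-type value in the cDC2 list is 12.6 normalised tags, so a region with 9.02 in cDC1 could be listed in both subsets only with the higher value in cDC2. The direction of this ratio is set by the list, and the cDC2 value rests on 9.5 tags.

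Other genes of cDC1 also had peaks. Of a list of 20 further cDC1 genes, all 20 had a cDC1 peak and 5 a cDC2 peak, where 51.4% and 9.54% of all protein-coding genes did. The highest-scoring cDC1 peaks of that list belonged to Bcl6, a transcriptional repressor, Wdfy4, needed for cross-presentation, Tlr3, a sensor of double-stranded RNA, and Rab43, a vesicle protein. They had 3.30, 3.30, 1.65 and 10.3 normalised tags in knockout cells and 124.9, 84.4, 102.8 and 82.6 in wild-type cells. The median of the highest peak per gene was 61.1 normalised wild-type tags. The highest peaks of Cd8a, Clec9a and Cd24a, at 15.9, 20.6 and 44.0, lay below that median, and those of Xcr1 and Cadm1, at 61.3 and 203.7, above it. The cDC2 peaks of the list belonged to Bcl6, Rab7b, Id2, Batf3 and Cd36.

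Surface genes of cDC2 also had cDC1 peaks. Of 15 such genes, 13 had a peak in cDC1 and 6 in cDC2, where 51.4% and 9.54% of all protein-coding genes did. The highest-scoring in cDC1 were those of Itgam, Cd300a, Clec12a and Cd4, with 4.12, 8.24, 4.12 and 0.412 normalised tags in knockout cells and 73.2, 68.2, 61.5 and 48.1 in wild-type cells. In cDC2 they were those of Clec4a4, Cx3cr1, Itgam and Clec12a, with 5.13, 0.733, 4.40 and 3.66 normalised tags in knockout cells and 38.7, 26.2, 30.4 and 18.8 in wild-type cells. Clec4a4, a lectin of cDC2, had its only peak in cDC2, and Clec10a had none in either subset. Clec9a had lower cDC1 signal than Clec12a, with 20.6 and 61.5 normalised wild-type tags at the highest peak counted for each. This leaves out the peak of 43.0 normalised tags 1.25 kb before the Clec9a RNA start, which was counted for Clec12b. Counts of these lists were not tested against other genes.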

How the data were processed

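CUT&Tag of DC-SCRIPT was analysed from 2 deposited peak lists, 1 per subset. Per the file headers, the authors called peaks of 191 bp with HOMER findPeaks on 1 wild-type tag set, with 1 knockout tag set as control. They required a false discovery rate of 0.001 and, over both knockout and the surrounding 10 kb, a fold of at least 4 and a Poisson p of at most 0.0001. The sources used here do not say which libraries entered each set, or name the aligner or the treatment of duplicates. The submitters' processing notes name HOMER and the builds GRCm38 and mm10. The deposited signal is wild-type tags scaled by the authors to 10000000. The deposited score is HOMER's, used to rank within a list. The deposited fold ratio and p-value compare tags, not replicates, and a deposited fraction per peak was not used.

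The knockout depth was derived from how the columns scale, and all tags were put on the normalised scale. In cDC1, 1 knockout tag equals 0.824 normalised tags, and 3 equal 2.47. In cDC2, 1 equals 1.47 and 3 equal 4.40. The lowest value, 0.5 tag, also stands for no tag, so only the lower limit of the fold is given there. Intervals are exact (Clopper-Pearson) with tags rounded to whole numbers. Tags were not counted by molecular identifiers as far as the labels say, so repeated reads may make intervals too narrow.

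Peaks were assigned to the protein-coding genes of RefSeq (GRCm38.p6). Gene ends are named by coordinate, and the strand of 3 of the 5 genes came from RefSeq promoter windows, which also gave the sequences. The windows run from 250 bases before to 50 after a start. The rules for assignment and interval were tested on simulated data. The tables hold no values per library, so the planned fits per library were not made. The 5 genes, the lists of further genes and the alternatives were chosen with earlier results of these data known. The genes named were all 5 genes with their peaks, the 4 with the highest-scoring peaks per list and subset, and the 3 most alike genes for Cadm1 and Xcr1. Other genes of a list were added with their values in view. The result of 1 further list is not reported here. Python 3.11.15, pandas 2.3.3, scipy 1.17.1 and matplotlib 3.10.9 were used.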

Additional observations from a re-analysis of the deposited data

How the results depend on the processing

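Of 22 values recomputed under another setting, 3 counts differed from the reported one by over 1.5 times, all for the 36 cDC1 peaks. The count was 23 with peaks inside a gene or within 10 kb of it, 22 with genes of any kind as the nearest gene, and 22 with a fold of at least 8. With the higher-scoring 50% of the list it was 25. An alternative chosen after seeing the data, which counted every peak within 10 kb of a gene whatever other gene held it, gave 26 in cDC1 and 3 in cDC2. The 3 cDC2 peaks became 2 under each planned setting. The cDC1 peaks with a cDC2 partner numbered 2 with an overlap of at least 50% and 4 with centres within 1 kb, beside 3. The peak added by the 1 kb setting, 11.0 kb before Xcr1, shares its cDC2 partner with the peak 10.3 kb before Xcr1. Ratios of wild-type signal with each subset divided by its median over shared regions, and folds with 1 tag added to the knockout set, stayed within the 95% interval of the reported value. The folds of the highest cDC1 peaks of Cd24a, Xcr1 and Cd8a nevertheless moved by over 1.5 times with that tag, to 26.7, 29.7 and 7.72, beside 53.3, 49.6 and 12.9. No paired analysis was possible because the tables hold no values per library, and for the same reason leaving out each replicate was not run. Knockout counts of 0.5 to 7 tags at cDC1 peaks limit every fold.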

Other observations

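The 5 genes differed in how isolated their peaks were. Around Cadm1 the nearest cDC1 peaks of other genes lay 1270 kb below the gene, by Apoa5, and 420.6 kb above it, inside Nxpe4. They had 0.824 and 1.65 normalised tags in knockout cells and 6.91 and 12.7 in wild-type cells. Xcr1 sits among chemokine receptor genes, and 66.7 kb above it a peak counted for Ccr1 had 6.18 normalised tags in knockout cDC1 and 102.5 in wild-type cDC1, more than any peak of Xcr1. A cDC2 peak 62.4 kb above Xcr1, also counted for Ccr1, had 11.0 normalised tags in knockout and 48.2 in wild-type cells. Above Clec9a, 9.69 kb away, a peak inside the lectin gene Clec1a had 5.36 and 62.6 normalised tags in knockout and wild-type cDC1.

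The genes most alike to Cadm1 were Atp1b3, Ubash3b and Klf6, at distances of 0.972, 1.01 and 1.23. The measure is a Euclidean distance over the numbers of peaks and the highest wild-type signals of both subsets, on a log2 scale, among 1974 genes with a peak in both lists. For Xcr1 they were Cert1, Fhad1 and Cfap43, at 0.171, 0.186 and 0.197. Each of these 3 had 5 cDC1 peaks and 2 cDC2 peaks, as Xcr1 did, and their highest wild-type signals were 61.7, 66.0 and 70.1 normalised tags in cDC1.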
